A study of Musa acuminata AAA Group with 4 samples.

Results

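Transcript levels of leaf and root were compared in plants of the banana cultivar Cavendish, a seedless triploid of the Musa acuminata AAA Group, grown with normal nitrogen. The comparison covered all genes of 1 normal-N leaf library and 1 normal-N root library, out of 4 libraries in the series. Of 31873 genes with a value in any library, 30773 had one in leaf or root under normal N, and 25724 reached 2 FPKM in the higher of them. FPKM is the number of fragments per kilobase of gene, scaled to the library's total.

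The plants stood in clean sand at 28 to 35 °C and were sampled after 60 days. The normal-N group received complete Hoagland solution, and the low-N group, which supplies a second leaf and a second root library, received a low-nitrogen solution. Per the series' design text, the aboveground sample held pseudostem as well as leaf blade, so a transcript of the leaf library can come from either. How many plants went into a library is not stated in the labels. Each group had a single library, so no test was possible, and the 95% intervals in brackets after a fold describe counting error alone. In such bulk samples, a lower value can mean fewer cells of a type or less RNA per cell, and these cannot be told apart.

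A leaf fixes carbon in chloroplasts, whose light-harvesting antennae feed 2 photosystems and whose Calvin cycle begins with the enzyme RuBisCO. Carbon leaves as sucrose through the phloem. A root takes up water, nitrate, ammonium, phosphate and metals across an epidermis and an endodermis that is sealed by suberin and lignin, and lives on the imported sugar. Nitrate taken up by the root can be reduced there or carried in the xylem to the leaf, where reductant from photosynthesis is at hand.

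The libraries held 4164782 (leaf) and 4393407 (root) expected fragments on genes and listed 26796 and 29158 genes. The labels were checked against marker sets. Of 35 leaf markers (photosystem, antenna and RuBisCO genes), 34 were higher in leaf, their summed FPKM was 58199 in leaf and 327 in root, and 12 were at 0 in root. Of 28 root markers (high-affinity nitrate transport, phosphate transport, Casparian strip, dirigent, LOB domain and root ferredoxin genes), 23 were higher in root and 4 in leaf. Their sums were 450 FPKM in leaf and 2579 in root, and 6 were at 0 in leaf. Markers of pseudostem and vascular tissue (secondary-wall cellulose synthases, laccases and phloem proteins) were higher in root for 12 of the 12 at the filter, with sums of 64.7 FPKM in leaf and 620 in root over the 14 found.

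A gene was called higher in an organ when log2 of the ratio of (FPKM + 1) was at least 1 in size, with 2 FPKM or more in the organ of the higher value. By that rule 5179 genes (20.1% of those at the filter) were higher in leaf and 10863 (42.2%) in root, so 62.4% of genes differed in 1 direction or the other. At a log2 ratio of at least 5 the numbers were close, 468 in leaf and 511 in root. The root library listed more genes that the other lacked: 2075 genes of at least 2 FPKM had no fragment in leaf, and 683 had none in root. Among the 123 genes above 1000 FPKM, 48.0% were higher in leaf and 47.2% in root, whereas among genes of 2 to 10 FPKM these shares were 16.9% and 40.7%.

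The tilt toward root depends on the scale. The leaf library was concentrated on few genes, with 10.01% of its fragments on 10 genes against 3.13% in root, and 23.6% against 12.6% on 100 genes. The median log2 ratio of all genes was -0.63 as deposited and -0.12 after scaling by median ratios. Leaf-higher genes made up 32.3% of calls as deposited, 45.7% after median-ratio scaling, 44.9% with TMM, 41.7% with the upper quartile and 36.4% with equal FPKM totals. A ratio is therefore read here against the median of -0.63, and list counts that median-ratio scaling moves by over 1.5 times are given both ways. Leaf-higher genes held 58.2% of the leaf library's fragments, and root-higher genes held 60.8% of the root library's.

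**Figure D1:**
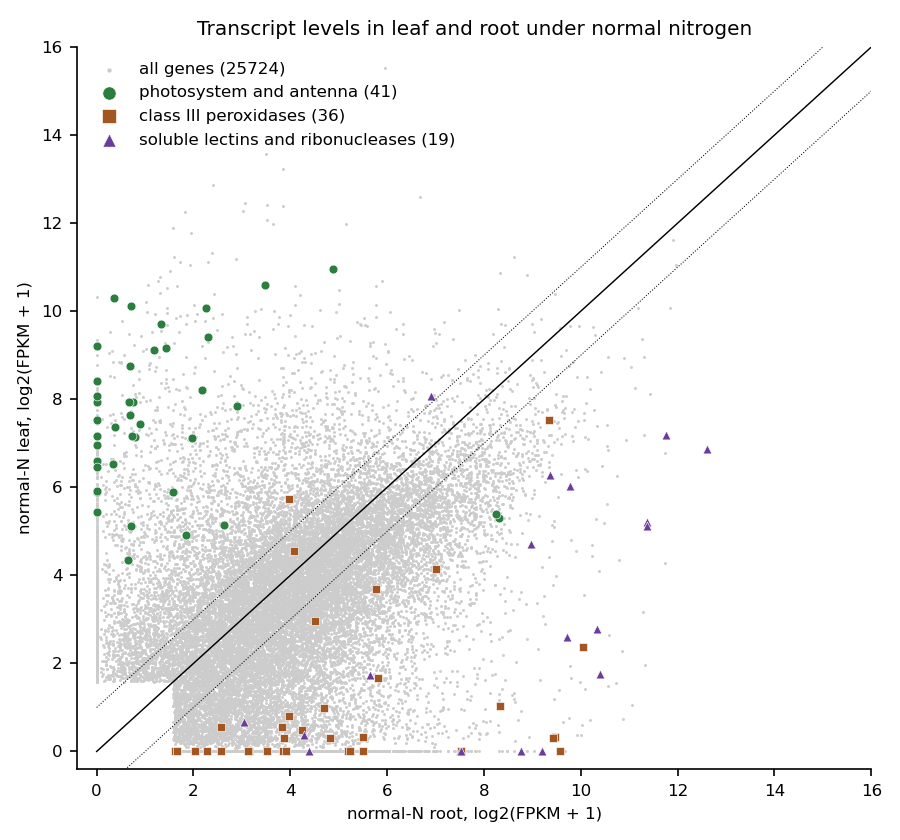
Each point is 1 of 25724 genes, with log2(FPKM + 1) in normal-N root on the x axis and in normal-N leaf on the y axis; the dotted lines mark a difference of 1. Of the 41 photosystem and antenna genes (green circles) 39 lie above the upper line, and 34 of 36 class III peroxidases (brown squares) and 18 of 19 soluble lectins and ribonucleases (purple triangles) lie below the lower one.

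Descriptions (the best BLAST match) came from the authors' filtered tables of low N over normal N, so they exist for genes picked because they differed between nitrogen supplies. Of the 2630 described genes at the filter, 613 (23.3%) were higher in leaf and 1323 (50.3%) in root. The 1026 that come from the root table leaned to root (9.45% higher in leaf, 72.6% in root), and the 1757 from the leaf table less so (31.3% and 36.9%). Every list below shares this selection, and its count is no independent evidence of a direction. The lists also cover the nitrogen-responsive members of a family and not the family as a whole.

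The list of photosystem and antenna genes had the largest median ratio toward leaf. Of 41 photosystem, antenna, cytochrome b6-f and electron-transfer genes, 39 were higher in leaf and 2 in root, with a median log2 ratio of 6.60. An LHCII type 1 antenna protein (Ma04_g07920), which binds chlorophyll around photosystem II, was at 1259 FPKM in leaf and 0.29 in root under normal N and at 595 and 1.72 under low N. Photosystem II reaction center W protein (Ma04_g27610) was at 1107 and 0.63 FPKM, and a PsaK subunit of photosystem I (Ma09_g09900) at 589 FPKM in leaf and 0 in root, at least 315-fold higher. These root values rest on 0 or 1 fragment. The most abundant member, the iron-sulfur subunit of the cytochrome b6-f complex (Ma09_g25040), was at 1991 FPKM in leaf and 28.7 in root, 69.2-fold higher (95% interval 55.9 to 86.8).

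Oxygen-evolving enhancer protein 1 (Ma08_g03860), which steadies the water-splitting manganese cluster, was at 1547 and 10.2 FPKM, 151-fold higher in leaf (113 to 207). CURVATURE THYLAKOID 1B (Ma08_g12110), which bends the thylakoid membrane at grana margins, was at 1069 and 1.73 FPKM. Peroxiredoxin Q (Ma05_g16490), a chloroplast peroxidase, was at 1539 and 1.09 FPKM. All of these transcripts had 589 FPKM or more in leaf, and in root the enhancer protein and the iron-sulfur subunit were the 2 above 2 FPKM.

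Both exceptions in the list were ferredoxin-NADP reductases, which pass electrons between ferredoxin and NADP(H). The root isozyme (Ma04_g34890) was at 38.8 FPKM in leaf and 318 in root, 8.24-fold higher in root (7.07 to 9.65). The embryo isozyme (Ma04_g38200) was at 40.9 and 305 FPKM, 7.49-fold higher in root (6.44 to 8.74). The leaf isozyme (Ma11_g01370) showed the opposite, with 433 FPKM in leaf and 0.61 in root. In heterotrophic plastids the root isozyme works in the reverse sense, supplying reduced ferredoxin to nitrite reductase and glutamate synthase. Without the 3 reductases, 38 of 38 members were higher in leaf, with leaf values of 19.3 to 1991 FPKM and root values of 0 to 28.7 FPKM.

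Carbon fixation and photorespiration gave 14 of 19 genes higher in leaf and 5 in root. The small chain of RuBisCO (Ma02_g24600) was the most abundant transcript of leaf, with 2.46% of the library's fragments. Its level was 47042 FPKM in normal-N leaf and 60.6 in normal-N root, and 19671 and 57.5 FPKM in the low-N pair. The fold in the normal-N pair was 773 (655 to 919). Carbonic anhydrase 2 (Ma06_g29120), which interconverts CO2 and bicarbonate, was at 7453 and 4.30 FPKM, 1759-fold higher in leaf (1066 to 3142), and had the largest log2 ratio of any gene, described or not. Mitochondrial serine hydroxymethyltransferase (Ma07_g28730) and a glycine cleavage H protein (Ma01_g01610), both of the photorespiratory glycine step, were at 985 and 510 FPKM in leaf and at 1.32 and 0.48 FPKM in root.

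The 5 root-higher members of that list were a RuBisCO small chain, a hydroxy-acid oxidase and 3 carbonic anhydrases. A second RuBisCO small chain (Ma07_g15870, clone 512-like) was at 1.89 FPKM in leaf and 224 in root, and at 0.95 and 81.6 FPKM in the low-N pair. Its fold in the normal-N pair was 119 toward root (46.3 to 439). A hydroxy-acid oxidase of the GLO1 type (Ma06_g21190), an enzyme that oxidizes glycolate in peroxisomes, was at 1.52 and 113 FPKM, 74.9-fold higher in root (36.1 to 187). Alpha carbonic anhydrase 7 (Ma08_g12300) was at 0.62 and 252 FPKM. A second gene of that name (Ma08_g13000) was at 10.8 and 227 FPKM, and carbonic anhydrase 1 (Ma07_g27130) at 7.99 and 137 FPKM. Of the 6 carbonic anhydrases on the list, 3 were higher in leaf and 3 in root.

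Chlorophyll genes were mostly higher in leaf, 10 of 12 against 1 in root, with a median log2 ratio of 3.0. Protochlorophyllide reductase (Ma11_g01810), the light-dependent step of chlorophyll synthesis, was at 263 and 0.94 FPKM, 279-fold higher in leaf (119 to 860). A STAY-GREEN LIKE gene (Ma08_g08020), related to the factor that starts chlorophyll breakdown, was at 31.7 FPKM in leaf and 0 in root, at least 34.1-fold higher. The root-higher member was a coproporphyrinogen-III oxidase of the haem and chlorophyll pathway (Ma02_g04400), with 0 FPKM in leaf and 21.7 in root.

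Starch and sucrose genes split between the organs. Of 19, 7 were higher in leaf and 7 in root (7 and 5 after median-ratio scaling), and the median of -0.14 turned to 0.35 with that scaling. Among starch genes, the small subunit of ADP-glucose pyrophosphorylase (glucose-1-phosphate adenylyltransferase, Ma01_g00130), which commits carbon to starch, was at 922 FPKM in leaf and 45.1 in root. It was 20.3-fold higher in leaf (18.2 to 22.8). A large subunit of that enzyme (Ma09_g06650) was at 36.5 and 0.28 FPKM, and a beta-amylase (Ma10_g10330), which releases maltose from starch, at 56.3 and 0.59 FPKM. Among genes of sucrose use, sucrose synthase 1 (Ma07_g21330), which splits imported sucrose in sink tissue, was at 12.1 FPKM in leaf and 338 in root. It was 28.0-fold higher in root (23.4 to 33.7). Under low N it was at 18.81 FPKM in leaf and 35.95 in root, within the limit of the rule. Sucrose synthase 2 (Ma03_g01820) was at 5.42 and 107 FPKM, 19.8-fold higher in root (15.2 to 26.4).

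Sugar carriers also split by family. All 3 SWEET transporters, which let sugar pass both ways across membranes, were higher in root, with leaf values of 0 to 0.93 FPKM. SWEET4 (Ma08_g25780) was at 0 FPKM in leaf and 79.0 in root, at least 82.2-fold higher in root. Of the 8 other sugar and polyol carriers at the filter, 6 were higher in leaf and 1 in root. Polyol transporter 1 (Ma01_g16140) was at 361 and 137 FPKM, 2.63-fold higher in leaf (2.44 to 2.84), and sugar transport protein 13 (Ma04_g03710), a proton-driven importer, at 112 and 37.0 FPKM.

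Nitrate uptake genes of the list were mostly higher in root under normal N. Of 8 high-affinity nitrate and ammonium transport genes, 5 were higher in root and 1 in leaf, and 5 and 2 after median-ratio scaling. Those called for root were 4 of 5 nitrate genes and 1 of 3 ammonium transporters. For comparison, 50.3% of described genes were higher in root. Among those from the root table, which holds 5 of the 8, the share was 72.6%. NRT2 proteins carry nitrate at low outside concentrations and need the partner NAR2. A NAR2 gene (Ma09_g01900) was at 1.24 FPKM in leaf and 314 in root under normal N, and at 22.1 and 39.1 FPKM under low N, 254-fold higher in root in the normal-N pair (86.5 to 1233). NRT2.1 (Ma08_g13030) was at 2.54 and 173 FPKM under normal N and at 9.47 and 22.3 FPKM under low N, 68.3-fold higher in root in the normal-N pair (42.5 to 118). The second NAR2 gene (Ma06_g13610) was at 54.5 FPKM in leaf and 343 in root, 6.31-fold higher in root (5.26 to 7.64), whereas under low N it stood at 255 and 26.7 FPKM, which is the opposite call.

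NRT2.3 (Ma04_g06400) was the exception under normal N, with 18.4 FPKM in leaf and 5.10 in root, 3.56-fold higher in leaf (2.42 to 5.35). Ammonium transporter 1 member 1 (Ma11_g15780) was at 25.4 and 88.2 FPKM and was called for root. Members 2-1 (Ma04_g19270) and 3-1 (Ma05_g28430) of that family were at 5.86 and 9.53 FPKM and at 7.22 and 3.57 FPKM, within the limit of the rule. The list's median was -1.76 under normal N and 1.03 under low N.

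Genes of nitrate reduction and ammonium assimilation were called in both directions. Of 3 nitrate reductases, 2 were higher in leaf and 0 in root as deposited, and 3 and 0 after median-ratio scaling. The main nitrate reductase (Ma09_g14900), which turns nitrate into nitrite, was at 1052 FPKM in leaf and 314 in root, and at 906 and 17.9 FPKM in the low-N pair. It was 3.34-fold higher in leaf under normal N (3.22 to 3.47). A second nitrate reductase (Ma05_g05570) was at 13.1 and 5.16 FPKM, 2.55-fold higher in leaf (1.66 to 4.01). Nitrite reductase (Ma09_g14720), the following plastid step, was at 348 and 199 FPKM, with a log2 ratio of 0.80 that is under the limit as deposited. The ferredoxin of root type (Ma09_g30430), which donates electrons in root plastids, was at 10.5 FPKM in leaf and 605 in root, 57.8-fold higher in root (36.8 to 96.3).

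Glutamine synthetase joins ammonium to glutamate, in the cytosol and in plastids. The nodule-type isozyme (Ma01_g15700) was at 5.64 FPKM in leaf and 360 in root, and at 4.92 and 36.7 FPKM in the low-N pair. It was 64.6-fold higher in root under normal N (43.6 to 100.1). Cytosolic isozyme 2 (Ma08_g31320) was at 19.0 and 136 FPKM and the leaf isozyme (Ma09_g16600) at 85.9 and 61.1 FPKM, so 2 of the 3 were called as deposited, both for root, and the leaf isozyme was called for leaf after median-ratio scaling. NADH-dependent glutamate synthase (Ma08_g28590) was at 0.04 and 31.7 FPKM, and a second gene (Ma07_g25920) at 47.6 and 115 FPKM. Over the 11 genes of assimilation, 2 were higher in leaf and 6 in root as deposited, and 5 and 5 after median-ratio scaling. Of described genes, 23.3% were higher in leaf and 50.3% in root as deposited. The root table, where 72.6% were higher in root, supplied 10 of the 11, so the count is not read as a trait of these genes.

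**Figure D2:**
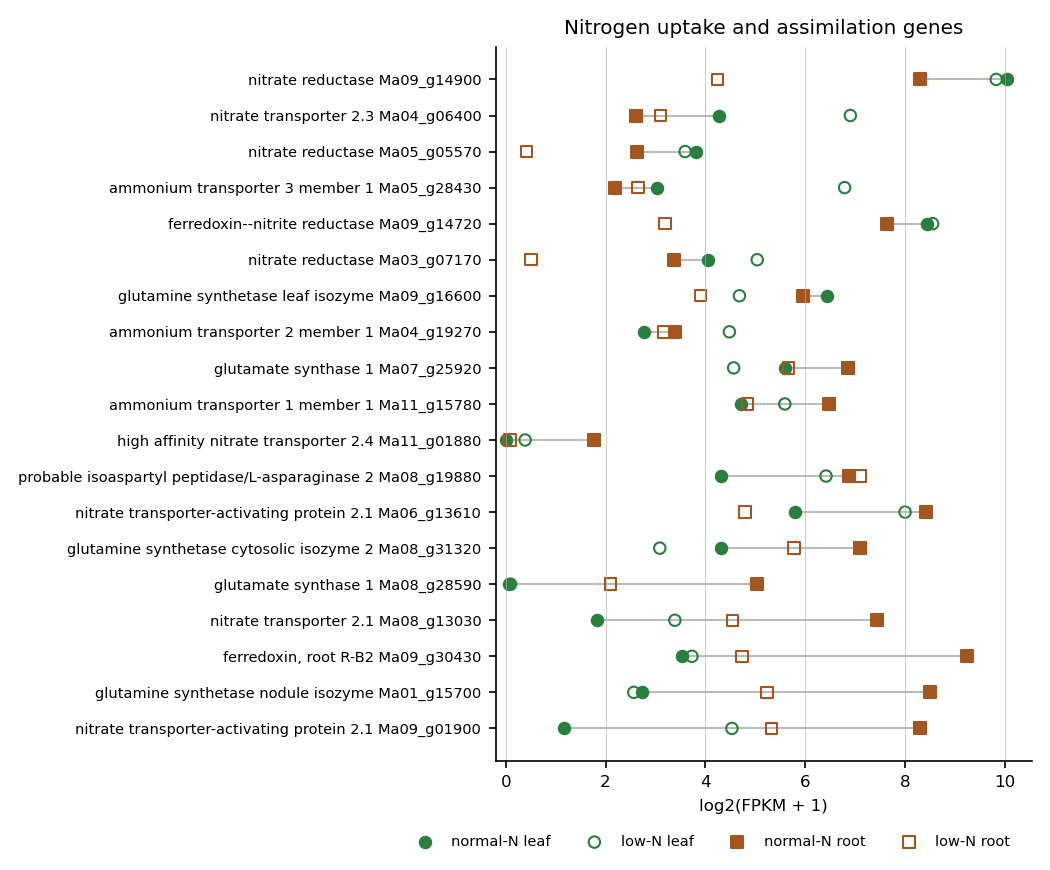
The 19 genes of nitrogen uptake and assimilation are ordered by their leaf over root ratio under normal N, with log2(FPKM + 1) on the x axis, circles for leaf, squares for root, filled symbols for normal N and open ones for low N; the grey line joins the normal-N pair. Nitrate reductase Ma09_g14900 lies at the top (1052 FPKM in leaf, 314 in root) and NAR2 Ma09_g01900 at the bottom (1.24 and 314 FPKM), and the open squares of Ma06_g13610 and Ma09_g14900 lie far left of the filled ones.

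The NPF family, which carries nitrate, peptides and hormones, had 7 of 14 members higher in leaf and 3 in root. Genes described as NPF6.3, the dual-affinity nitrate transporter and sensor of Arabidopsis, lay on both sides. Ma01_g13520 was at 36.1 FPKM in leaf and 1.53 in root, 24.4-fold higher in leaf (13.7 to 47.7). Its namesakes Ma08_g10970 and Ma08_g10980 were at 0.22 and 0.67 FPKM in leaf and at 6.64 and 6.37 FPKM in root. NPF4.4 (Ma08_g08150) was at 0.29 and 82.4 FPKM, 309-fold higher in root on 2 fragments in leaf (85.1 to 2553).

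Amino acid and oligopeptide carriers were even, with 6 of 18 called each way, and the median of -0.39 went to 0.00 after median-ratio scaling. Lysine histidine transporter 1 (Ma08_g32350), a broad amino acid importer in Arabidopsis, was the most abundant, at 211 FPKM in leaf and 41.6 in root, 5.05-fold higher in leaf (4.40 to 5.81). A vacuolar amino acid transporter (Ma06_g08530) was at 18.1 FPKM in leaf and 0 in root. Amino acid permease 4 (Ma02_g13200) was at 2.16 and 83.0 FPKM, 38.5-fold higher in root (22.8 to 70.9), and a sodium-coupled neutral amino acid transporter (Ma07_g23720) at 0.18 and 47.2 FPKM.

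Phosphate and sulfate genes held 11 of 21 members higher in leaf and 8 in root. SPX proteins bind inositol pyrophosphates and report phosphate status, and 5 of 6 were higher in leaf, with leaf values of up to 252 FPKM. An SPX membrane protein (Ma11_g03030) was at 121 and 1.17 FPKM, 102-fold higher in leaf (57.0 to 206). SPX5 (Ma01_g15270) was the member higher in root, at 0.61 and 21.2 FPKM. The PHT1 phosphate transporters divided 3 to 3 among 7, and the most abundant in root (Ma04_g36790, type 1-8) was at 53.6 and 232 FPKM, 4.35-fold higher in root (3.88 to 4.88). Sulfate transporter 1.3 (Ma07_g11460) was at 156 and 4.29 FPKM, 36.3-fold higher in leaf (26.3 to 51.5), and 3.1 (Ma03_g15840) at 0.72 and 32.6 FPKM, 45.7-fold higher in root (20.7 to 125).

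Water, potassium and metal transport genes were called for leaf in 10 of 31 cases and for root in 13. Of described genes, 23.3% were called for leaf and 50.3% for root. The root table, where 72.6% were higher in root, supplied 21 of the 31. Of 8 aquaporins, 6 were higher in root. TIP2-2 (Ma10_g22190), a water and ammonia channel of the vacuole, was at 0.33 and 212 FPKM, and another TIP2-2 gene (Ma06_g07460) at 8.26 and 388 FPKM. NIP2-1 (Ma05_g25720), the silicon channel Lsi1 in rice, was at 30.8 FPKM in leaf and 0 in root, at least 39.4-fold higher in leaf. Nicotianamine synthase 3 (Ma11_g19090), which makes a chelator of iron and zinc, was at 0.50 and 144 FPKM. Boron transporter 4 (Ma02_g21520) was at 161 and 4.52 FPKM, 35.2-fold higher in leaf (25.9 to 49.1).

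Metallothioneins, small cysteine-rich proteins that bind copper and zinc, were among the most abundant transcripts of both libraries. Ma06_g27920 was at 6215 FPKM in leaf and 101 in root, 61.4-fold higher in leaf (48.7 to 78.5). Type 2A (Ma01_g10480) was at 18.5 and 3399 FPKM, 185-fold higher in root (112 to 331). Type 3 (Ma03_g16510) was high in both, at 2107 and 4017 FPKM, with a log2 ratio of -0.93 that is under the limit.

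Genes of wall building and stiffening were mostly higher in root. Class III peroxidases, secreted haem enzymes that couple lignin units and stiffen walls, had 34 of 36 members higher in root and 1 in leaf (32 and 2 after median-ratio scaling), with a median log2 ratio of -3.63, and 32 of the 36 came from the root table. Peroxidase 60 (Ma02_g06740) was at 0 FPKM in leaf and 764 in root, and at 0.69 and 124 FPKM under low N, at least 1126-fold higher in root under normal N. The most abundant, cationic peroxidase SPC4 (Ma03_g02760), was at 4.17 and 1052 FPKM, 257-fold higher in root (163 to 435). Peroxidases P7 (Ma02_g17250) and 1 (Ma06_g23680) were at 0.26 and 702 FPKM and at 0.24 and 686 FPKM, each with 1 fragment in leaf. The leaf-higher member, peroxidase 5 (Ma05_g22740), was at 52.1 and 14.7 FPKM, 3.53-fold higher in leaf (2.65 to 4.76).

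Secondary-wall genes had 22 of 25 members higher in root and 2 in leaf, and 20 of the 25 came from the root table. The cellulose synthases of woody walls (4 of 4 higher in root) reached 12.97 FPKM at most in leaf and 40.6 to 93.4 FPKM in root. Fasciclin-like arabinogalactan protein 11 (Ma05_g30650), a marker of xylem fibres in other plants, was at 0.31 and 261 FPKM on 1 fragment in leaf, and all 6 proteins of this kind were higher in root. IRX15-LIKE (Ma10_g09990), of xylan synthesis, was at 0 and 41.9 FPKM, at least 57.2-fold higher in root. A xylan glucuronosyltransferase (Ma07_g03120) was the main exception, at 39.2 and 1.77 FPKM, 22.1-fold higher in leaf (13.2 to 39.9). Leaf vascular tissue and pseudostem make such walls too. The marker set of those tissues given above holds genes of the same kinds, so it is no separate check of tissue content, which was not tested.

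Phenylpropanoid and lignin enzymes had 23 of 37 members higher in root and 5 in leaf, and 20 and 8 after median-ratio scaling. Cinnamate 4-hydroxylase (Ma03_g05400), an early step of the pathway, was at 6.75 and 251 FPKM, 37.4-fold higher in root (24.0 to 61.5). Another gene of that description (Ma06_g10250) was at 129 and 186 FPKM, within the limit of the rule. Under low N the latter was at 344 FPKM in leaf and 177 in root. Ferulate 5-hydroxylase (described as cytochrome P450 84A1, Ma11_g15990), which leads to syringyl lignin, was at 0.15 and 120 FPKM. All 7 laccases, which oxidize lignin units, were higher in root, and laccase-22 (Ma11_g22550) was at 1.28 and 96.5 FPKM, 75.9-fold higher (39.8 to 167). The most abundant gene of the list, a 4-coumarate-CoA ligase-like protein (Ma07_g18310), was higher in leaf, at 1812 and 475 FPKM, a fold of 3.80 (3.66 to 3.95). Chalcone synthase 2 (Ma10_g12390), the entry to flavonoids, was at 395 and 24.1 FPKM, 16.3-fold higher in leaf (13.6 to 19.6). A second gene of that name (Ma06_g12370) was called for root, at 10.8 FPKM in leaf and 42.2 in root.

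Barrier genes of root had 17 of 21 members higher in root and 3 in leaf, and 18 of the 21 came from the root table. All 8 dirigent proteins, which steer the coupling of lignin and lignan units, were higher in root, with 0 to 11.7 FPKM in leaf and 21.1 to 223 FPKM in root. Dirigent protein 22 (Ma09_g10890) was at 0 and 58.7 FPKM, at least 42.3-fold higher in root. The feruloyl transferase of suberin (Ma03_g07940) was at 1.39 and 50.5 FPKM, 36.5-fold higher in root (18.3 to 85.3). Members of the list that were higher in leaf belong to enzyme families that make cutin and wax as well as suberin: a glycerol-3-phosphate acyltransferase (Ma08_g27730) was at 41.8 and 0 FPKM and a fatty acyl-CoA reductase (Ma09_g30410) at 73.3 and 2.58 FPKM.

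Lipid-transfer proteins gave some of the largest contrasts among surface genes. Of genes described as non-specific lipid-transfer protein 1, secreted proteins of the epidermis, Ma04_g17200 was at 1284 FPKM in leaf and Ma04_g17220 at 653 FPKM. Both were at 0 in root, at least 617-fold and 311-fold higher in leaf. Another gene of that name, close to these in the gene numbering (Ma04_g17190), was at 35.5 and 36.5 FPKM. The DIR1 type (Ma04_g16130) was at 1.65 FPKM in leaf and 750 in root, 456-fold higher in root on 2 fragments in leaf (126 to 3774).

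Growth-related wall genes were also higher in root, 51 of 62 against 5 in leaf. They comprise 7 of 9 expansins, which loosen walls, 11 of 14 xyloglucan endotransglucosylases, which cut and rejoin the hemicellulose, and 9 of 10 leucine-rich repeat extensins. Extensin-like protein 3 (Ma06_g27060) was at 0.60 and 796 FPKM and extensin-like protein 4 (Ma09_g13640) at 0.12 and 126 FPKM. Expansin-like A1 (Ma05_g11350) was higher in leaf, at 21.4 and 0.59 FPKM. After median-ratio scaling the counts were 45 in root and 5 in leaf, and 43 of the 62 genes came from the root table.

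Cell division and microtubule genes had 26 of 35 members higher in root and 1 in leaf, and 22 and 2 after median-ratio scaling. Alpha-tubulin (Ma07_g08050), a microtubule subunit, was at 4.69 and 282 FPKM, 59.7-fold higher in root (40.9 to 90.9). The most abundant, beta-tubulin 7 (Ma05_g16910), was at 56.3 and 374 FPKM, 6.67-fold higher in root (5.93 to 7.53). Of 9 histones 8 were higher in root as deposited and 5 after median-ratio scaling. The kinesin NACK1 (Ma02_g13770), which builds the plant cell plate, was the leaf-higher member at 15.6 and 6.33 FPKM. A CKS1 gene (Ma02_g13600) was listed at 0 FPKM in leaf, yet its values equalled those of Ma02_g13560 in the other 3 libraries. In leaf, Ma02_g13560 was at 47.3 FPKM. Whether the 2 genes share fragments was not tested, and neither value is read as an organ difference.

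Ribosomal genes divided by compartment. Of 6 plastid 50S ribosomal proteins, 5 were higher in leaf, and of 9 cytosolic 60S and 40S proteins, 9 were higher in root as deposited and 5 after median-ratio scaling. Plastid L9 (Ma09_g24070) was at 365 and 13.5 FPKM, 27.0-fold higher in leaf (19.2 to 39.3). Cytosolic L13a (Ma03_g18980) was at 41.8 and 208 FPKM, 5.01-fold higher in root (4.06 to 6.23), and elongation factor 1-alpha (Ma10_g30390) at 59.8 and 304 FPKM, 5.10-fold higher in root (4.54 to 5.74).

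Soluble lectins were among the most abundant described transcripts of root. These jacalin-related and mannose-binding proteins are storage and defence proteins, and banana fruit is known for them. All 15 lectins were higher in root, with leaf values of 0 to 145 FPKM and root values of 7.26 to 6270 FPKM. In a run of consecutive gene numbers, Ma09_g10440 was at 117 and 6270 FPKM, Ma09_g10450 at 35.8 and 2657, Ma09_g10460 at 145 and 3459, and Ma09_g10470 at 34.1 and 2652. Their folds toward root were 54.1 (43.3 to 68.6), 74.6 (57.8 to 97.9), 24.0 (21.1 to 27.4) and 78.3 (60.4 to 103.6). Because they are close relatives, fragments may have been shared among them. Horcolin (Ma10_g09820) was at 0 and 590 FPKM, at least 347-fold higher in root.

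Defence proteins were higher in root for 38 of 71 genes and in leaf for 17, near the shares of described genes (50.3% and 23.3%), and 33 and 22 after median-ratio scaling. All 5 Bowman-Birk inhibitors, which block trypsin and chymotrypsin, were higher in root as deposited and 4 after median-ratio scaling. Ma05_g10670 was at 108 FPKM in leaf and 3440 in root, 31.9-fold higher (27.5 to 37.3). Of 10 PR1 genes, secreted markers of salicylate signalling, 8 were higher in root and 2 in leaf, and Ma09_g15840 was at 0.52 and 226 FPKM. Chitinases gave 8 of 13 higher in root and 2 in leaf. A basic endochitinase (Ma05_g21440) and a glucan endo-1,3-beta-glucosidase (Ma03_g07920), which degrade fungal walls, were at 48.1 and 48.5 FPKM in leaf and at 0 in root. Disease resistance proteins, intracellular immune receptors, were divided, with 6 of 22 higher in leaf and 5 in root (10 and 3 after median-ratio scaling).

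The list of oxidases and lipoxygenases had 16 of 28 members higher in root and 3 in leaf, against 50.3% and 23.3% of described genes. After median-ratio scaling the counts were 14 and 4 of 27. Of 13 lipoxygenases, which add oxygen to fatty acids, 9 were higher in root as deposited and 7 after that scaling, and 0 in leaf. The gene of 9S-lipoxygenase 6 (Ma06_g26890) was at 22.6 and 958 FPKM, 42.6-fold higher in root (37.6 to 48.5). Of 6 polyphenol oxidases, the enzymes of tissue browning, 5 were higher in root, and Ma08_g09160 was at 9.27 and 468 FPKM, 50.9-fold higher (39.4 to 67.0). Primary amine oxidases, which deaminate polyamines, went the other way, with 3 of 5 higher in leaf, and Ma08_g14400 was at 59.2 and 7.41 FPKM, 7.94-fold higher in leaf (5.74 to 11.2).

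Genes of low-oxygen metabolism were high in normal-N root. Of 13, 10 were higher in root and 0 in leaf, and 10 and 1 after median-ratio scaling. The root table supplied 10 of the 13. Non-symbiotic hemoglobin 2 (Ma02_g10610), which binds oxygen and scavenges nitric oxide, was at 0.51 FPKM in leaf and 1039 in root under normal N, but at 1.54 and 2.89 FPKM under low N. Alcohol dehydrogenase 3 (Ma06_g19900), the last step of ethanol fermentation, was at 0 and 471 FPKM, and at 0.63 and 43.2 FPKM under low N, at least 751-fold higher in root under normal N. Alcohol dehydrogenase 1 (Ma02_g09950) was at 4.83 and 476 FPKM, 98.8-fold higher in root (65.7 to 156). All 5 alcohol and lactate dehydrogenases were higher in root, whereas pyruvate decarboxylases were higher in root in 3 of 5 cases. The list's median was -4.23 under normal N and -1.24 under low N.

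Ethylene genes were also mostly higher in root. ACC oxidase makes ethylene, and 4 of 5 genes of this description were higher in root, with 0 called for leaf as deposited and 1 after median-ratio scaling. The highest in root (Ma05_g09360) was at 0.27 and 201 FPKM under normal N and at 0 and 4.10 FPKM under low N. Of 43 ethylene-responsive factors, 31 were higher in root and 3 in leaf (30 and 5 after median-ratio scaling), where 50.3% and 23.3% of described genes were. ERF8 (Ma03_g24970) was at 1.49 and 165 FPKM, 111-fold higher in root (43.1 to 410), and CRF1 (Ma09_g05160), a cytokinin response factor, at 15.2 and 1.82 FPKM, 8.29-fold higher in leaf (3.76 to 21.6).

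Other transcription factor families differed in balance. MYB genes were higher in root in 20 of 29 cases and in leaf in 3, and bHLH and bZIP genes in 18 and 6 of 28. Of described genes 50.3% were higher in root and 23.3% in leaf. After median-ratio scaling the counts were 17 and 3 for MYB genes and 13 and 6 for bHLH and bZIP genes. On that scale 1110 and 737 of 2629 described genes were so called, so the bHLH and bZIP counts are not read as a family trait. WRKY genes, many of them defence regulators, were nearer to even, with 17 of 52 higher in root and 11 in leaf, and 12 and 17 after median-ratio scaling, so their direction depends on the scale. NAC genes were even too, 11 of 32 in root and 10 in leaf. NAC43 genes, named after a master regulator of fibre walls in Arabidopsis, were among the root-higher ones: Ma03_g11950 was at 0 and 17.9 FPKM, at least 28.8-fold higher. NAC29 (Ma06_g33980), a regulator of leaf senescence in Arabidopsis, was at 113 and 17.1 FPKM, 6.56-fold higher in leaf (5.16 to 8.44).

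LOB domain factors, which in other plants act in lateral organ and lateral root formation, were higher in root in all 6 cases as deposited and in 5 after median-ratio scaling, and LOB 41 (Ma04_g06820) was at 0 and 94.5 FPKM. Knotted-1-like 1 (Ma11_g04850), a meristem homeobox gene, was at 0 and 32.9 FPKM, at least 43.3-fold higher in root. BEL1-type homeobox genes were among the leaf-higher ones, such as Ma04_g14630 at 85.9 and 15.8 FPKM, 5.43-fold higher (4.55 to 6.52). All 4 CONSTANS-type genes, photoperiod regulators of the day-length pathway, were higher in leaf, and CONSTANS-LIKE 16 (Ma04_g37190) was at 54.0 and 0 FPKM, at least 96.7-fold higher. The light-signalling factor PIF4 (Ma05_g02230) was at 25.9 and 1.26 FPKM, 20.5-fold higher in leaf (10.6 to 45.6).

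Hormone genes leaned to root by size, near the share of described genes. Auxin genes were higher in root in 12 of 24 cases and in leaf in 3, and those of gibberellin, abscisic acid, cytokinin and jasmonate in 33 and 11 of 60. IAA30 (Ma04_g29070), an auxin response repressor, was at 1.60 and 42.5 FPKM, 26.5-fold higher in root (11.1 to 83.0). A PIN-type efflux carrier (component 8, Ma06_g01320) was at 12.8 FPKM in leaf and 0 in root. Gibberellin-regulated protein 2 (Ma07_g04340), a small secreted peptide, was at 0 and 130 FPKM. LOG1 (Ma01_g02620), which activates cytokinin, was at 134 and 4.85 FPKM, 27.1-fold higher in leaf (15.96 to 50.1).

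Receptor kinases, the largest list, had 38 of 159 members higher in leaf and 67 in root, and 55 and 53 after median-ratio scaling, so no balance toward root remained on that scale. Calcium signalling genes had 7 of 38 higher in leaf and 18 in root, near the shares of described genes (23.3% and 50.3%). ERECTA (Ma07_g02250), which shapes stomata and stems in Arabidopsis, was at 16.6 and 0.08 FPKM, on 1 fragment in root. CIPK23 (Ma04_g38110), a kinase that acts on nitrate and potassium transporters in Arabidopsis, was at 5.86 and 174 FPKM, 26.2-fold higher in root (18.4 to 38.6).

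Heat shock proteins and chaperones were more often higher in leaf. Of 33, 16 were higher in leaf and 5 in root (18 and 3 after median-ratio scaling), with a median log2 ratio of 0.86. Among the heat shock proteins proper (small proteins, HSP70 and HSP90), 11 of 13 were higher in leaf and 0 in root. The most abundant, an 18.1 kDa class I protein (Ma01_g14490), was nearly level at 471 and 577 FPKM. A DnaJ protein (Ma06_g30910) was at 162 and 2.74 FPKM, 59.0-fold higher in leaf (31.8 to 124), and a BAG regulator (Ma10_g14770) at 285 and 29.4 FPKM.

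**Figure D3:**
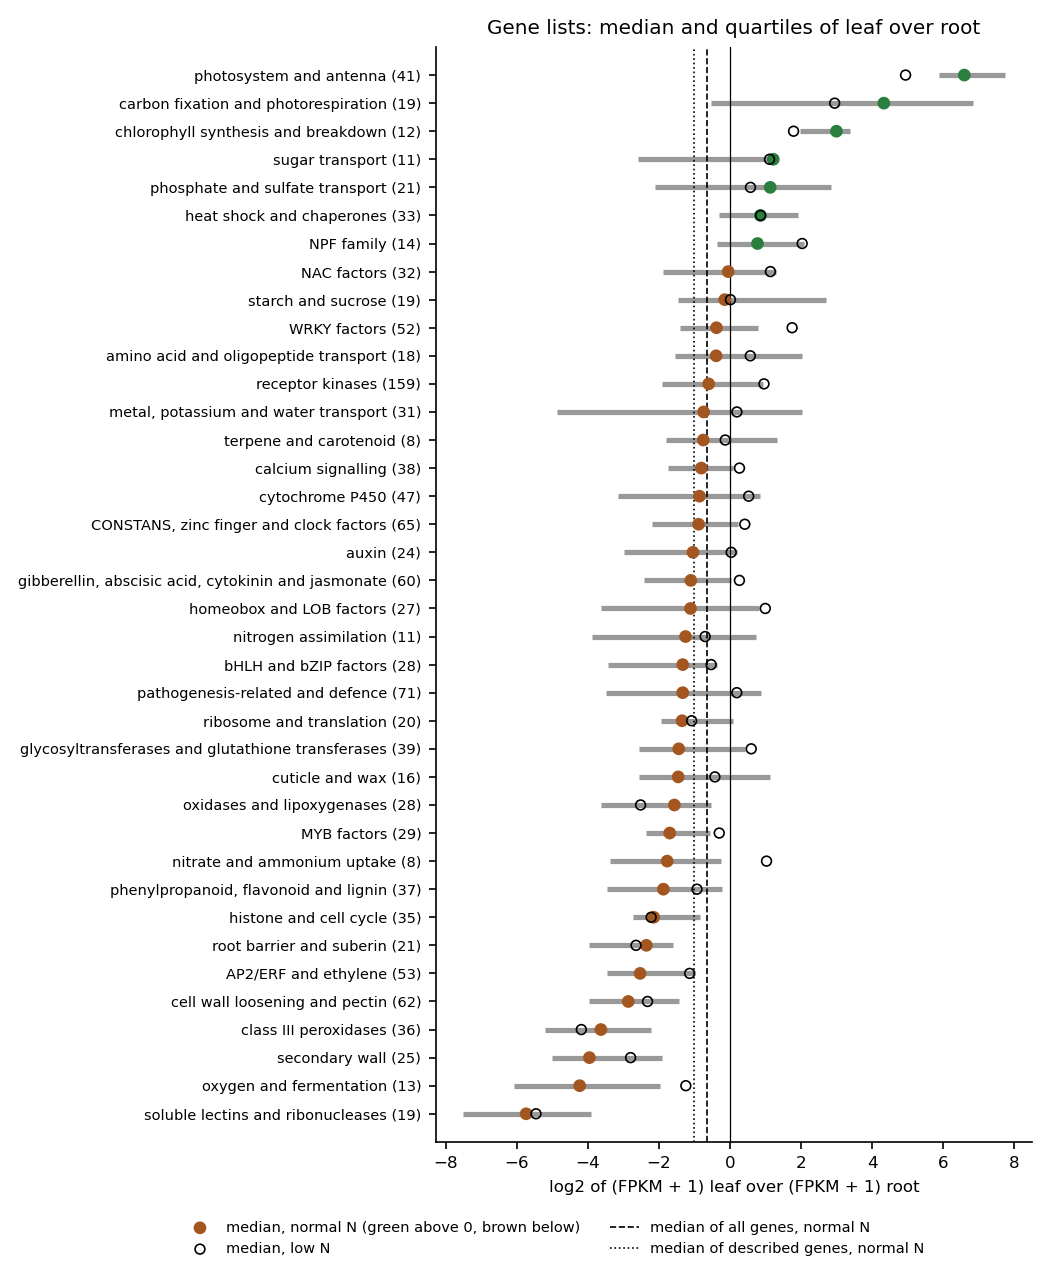
For each of 38 gene lists (number of members at the filter in brackets) the filled circle gives the median of log2 leaf over root under normal N, the grey bar its quartiles and the open circle the median of the same genes under low N. The lists run from soluble lectins and ribonucleases (-5.74) to photosystem and antenna (6.60), against -0.63 for all genes (dashed line); the medians of NAC, WRKY, starch and amino acid lists change sign when the libraries are scaled by median ratios.

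Some genes of opposite calls shared a description. Among described genes of at least 5 FPKM, 449 groups of the same BLAST name had 2 or more members. Of these, 77 (17.1%) had at least 1 gene called for leaf and 1 called for root. The number was 27 at a log2 limit of 2 and 85 after median-ratio scaling. Because 23.3% of described genes were called for leaf and 50.3% for root, unrelated genes would often be called both ways too. No share was computed for unrelated genes, so the 17.1% is not read as a trait of namesakes. The widest gap was between proline-rich proteins of 1 name: Ma02_g03450 was at 125 FPKM in leaf and 2.03 in root, and Ma01_g20030 at 0.69 and 865 FPKM. Their folds were 61.4 toward leaf (23.7 to 227) and 1255 toward root, the latter on 2 fragments in leaf (347 to 10369). For ribonuclease 3, a secreted RNase, Ma04_g08930 was at 2.36 and 1347 FPKM, and Ma09_g07590 at 267 and 118 FPKM. The latter was at 0.61 and 124 FPKM under low N, so its leaf preference was seen under normal N alone.

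Plasma membrane proton pumps showed opposite calls under normal N. Ma04_g12650 was at 48.5 and 10.7 FPKM, 4.51-fold higher in leaf (3.74 to 5.47), and Ma05_g25120 at 0.33 and 268 FPKM, 818-fold higher in root (319 to 3003). Under low N Ma04_g12650 was at 28.8 FPKM in leaf and 32.7 in root, so its leaf preference was seen under normal N alone. Germin-like protein 2-1 gave 30.8 and 11.1 FPKM for Ma09_g31190 and 19.3 and 1758 FPKM for Ma05_g29070. XTH protein 30 gave 90.2 and 15.4 FPKM for Ma04_g33940 and 0.95 and 62.7 FPKM for Ma11_g16450. For galactinol-sucrose galactosyltransferase 2, which makes raffinose, Ma04_g26120 was at 65.2 and 0.09 FPKM and Ma04_g28690 at 2.28 and 8.15 FPKM. The latter was at 7.25 FPKM in leaf and 5.82 in root under low N, so its root preference was also absent there. A shared name is a shared best match and does not show that the genes are copies of each other.

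**Figure D4:**
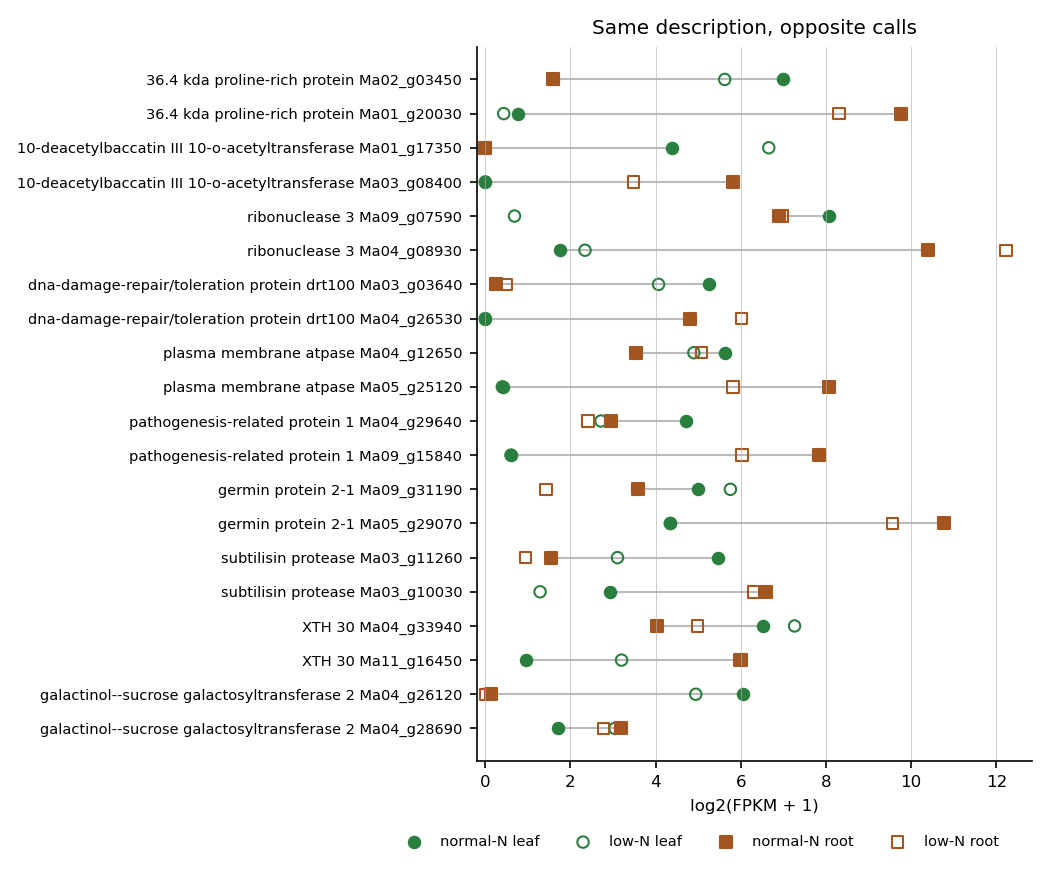
The 10 pairs with the widest gap among genes that share a description are shown with log2(FPKM + 1) on the x axis, circles for leaf, squares for root, filled for normal N and open for low N; the grey line joins the normal-N pair. In each pair the upper gene is higher in leaf and the lower in root under normal N, as with proton pumps Ma04_g12650 (48.5 and 10.7 FPKM) and Ma05_g25120 (0.33 and 268 FPKM).

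Level genes were chosen as the most abundant described ones with a log2 ratio within 0.2 as deposited. They therefore lie above the all-gene median of -0.63, on the leaf side of it. The translation factor SUI1 (Ma04_g30500) had a fold of 1.12 toward leaf (0.992 to 1.28). UDP-glucose pyrophosphorylase (Ma09_g24400), which makes the sugar donor for sucrose and cell walls, had 1.10 toward leaf (1.03 to 1.18). For a CCCH zinc finger protein (Ma06_g34580) the fold was 1.05 toward leaf (0.984 to 1.12). In the low-N pair the folds of these genes, in the same order, were 1.25 toward leaf, 3.11 toward root and 1.92 toward leaf. Genes without a description had ratios of similar size to the largest described ones: Ma07_g24600 was at 4864 FPKM in leaf and 2.52 in root, 1920-fold higher in leaf (1011 to 4200), and Ma05_g15370 and Ma10_g13790 were at 0.67 and 1.08 FPKM in leaf and at 1884 and 2123 FPKM in root.

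The low-N leaf and root libraries are a separate pair that shares no library with the normal-N pair. Of the 5179 leaf-higher genes, 4050 (78.2%) were called for leaf again, and of the 10863 root-higher genes 8010 (73.7%) were called for root again, while 22.8% and 37.1% of all genes at the filter were called in these directions under low N. At a log2 ratio of at least 5, 468 of 468 leaf-higher and 507 of 511 root-higher genes were called the same way. Opposite calls were made for 35 leaf-higher and 95 root-higher genes. The summed level of the root markers changed sides, with 1540 FPKM in low-N leaf and 676 in low-N root, whereas their median stayed higher in root (8.10 and 13.7 FPKM). That set was drawn from described genes, which were selected for a nitrogen difference.

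**Figure D5:**
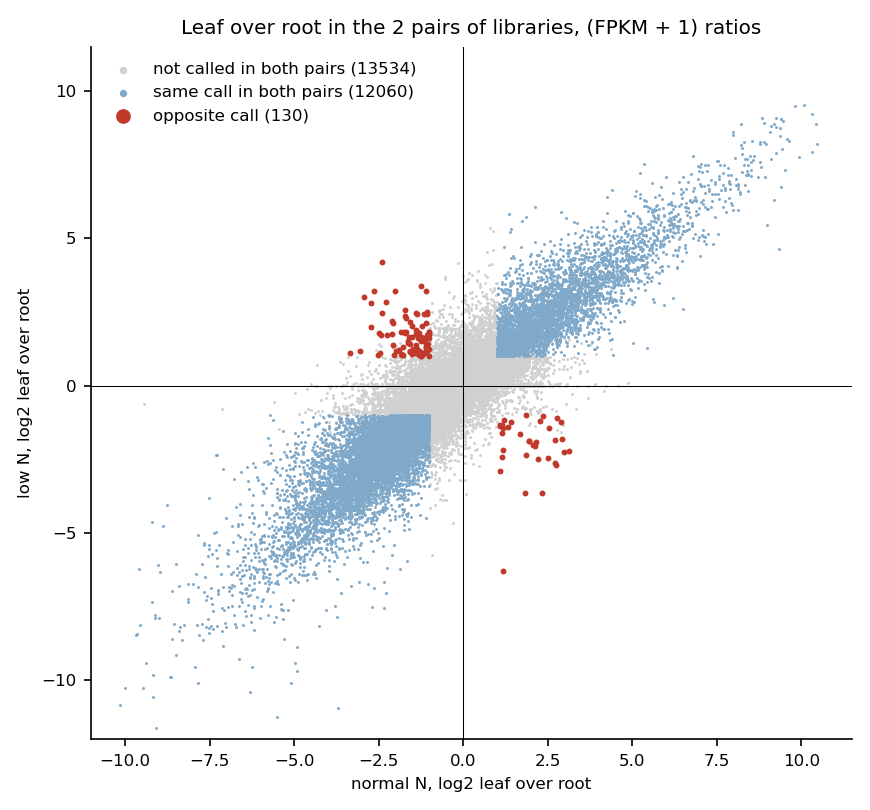
Each point is 1 of 25724 genes, with log2 of leaf over root (FPKM + 1) under normal N on the x axis and under low N on the y axis. The 12060 genes with the same call in both pairs (blue) lie along the diagonal, and the 130 with opposite calls (red) lie in the other quadrants.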

How the data were processed

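Expression was measured by RNA sequencing of poly(A) RNA from 4 libraries, 1 per group. Per the file headers, the authors deposited for each gene an expected count (estimated fragments), a gene length and an FPKM value; a gene not listed was read as 0. The authors' deposited tables of low N over normal N, which hold a log2 ratio, were used for descriptions only. BWA and Bowtie are named in the submitters' processing notes; which counter, genome build and strand setting were used is not given in the sources used here. Over genes of at least 50 counts, deposited FPKM exceeded the count per kilobase of listed length, scaled by the library's total, by a median factor of 1.21 (leaf) and 1.22 (root) up to 200 bases, and was 0.982 and 0.978 times it above 2000 bases. Gene IDs did not match the reference table, so no coordinates or sequences are given.

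Log2 ratios used FPKM with a pseudocount of 1, and calls a limit of 1 with 2 FPKM in the higher library. Folds are ratios of expected counts, rounded and scaled by totals, with exact 95% Clopper-Pearson intervals (scipy 1.17.1); against 0 counts a floor of 3 counts per library was used, equal to 0.720 FPKM in leaf and 0.683 in root for a 1 kb gene, and the bound leaves out the other library's counting error. Intervals and floors cover counting error only. Calls and folds were tested on simulated data. TMM factors came from edgeR 4.0.16.

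The 38 lists were drawn by search terms on the descriptions, and members and lists were chosen with earlier results of these data known. Named genes were the 12 largest ratios per direction among described genes of at least 10 FPKM, the 8 most abundant per library, up to 3 per direction and the most abundant of each list (at least 5 FPKM), the 10 widest same-name groups, 6 level genes, 5 per direction with opposite calls under low N, and 2 per direction of all genes. Further list members were chosen after their values were seen. Alternatives were other pseudocounts, filters, scalings, a limit of 2, lists from either table alone and the low-N pair. No replicate could be left out.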

Additional observations from a re-analysis of the deposited data

Results flagged for a closer look

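The calls for leaf over root were opposite under the 2 nitrogen supplies for the 10 genes given here. They are the 5 per direction with the largest normal-N ratios among genes of 5 FPKM or more in 1 organ of each pair. The difference between supplies was not tested, since each group had a single library, and the genes were picked for it. NAR2 gene Ma06_g13610, the partner of nitrate transporter NRT2, was at 54.5 FPKM in leaf and 343 in root under normal N and at 255 and 26.7 FPKM under low N, where its log2 ratio was 3.21. A protein S-acyltransferase (Ma11_g09260), which attaches lipid to proteins, was at 7.93 and 89.0 FPKM and then at 10.7 and 4.42 FPKM, a low-N log2 ratio of 1.11. Cyclic dof factor 4 (Ma08_g27940), of a family that represses CONSTANS in Arabidopsis, was at 1.08 and 10.9 FPKM and then at 13.4 and 6.08 FPKM, a ratio of 1.03.

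An LHCII type 1 antenna gene (Ma05_g08930) was at 34.6 FPKM in leaf and 5.17 in root under normal N and at 1.26 and 5.14 FPKM under low N, a low-N log2 ratio of -1.44. A beta-galactosidase (Ma02_g18550), which trims wall sugars, was at 11.8 and 0.63 FPKM and then at 0.76 and 7.41 FPKM, a ratio of -2.26. A gene with no description (Ma06_g35600) was at 28.5 and 2.99 FPKM and then at 3.19 and 8.95 FPKM, a ratio of -1.25. Its low-N values rest on 2 and 6 fragments, and the fold of 2.82 toward root has an interval of 0.504 to 28.6, so its opposite call is within counting error.

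The low-N ratios of Ma01_g04040 (2.81), Ma06_g04860 (3.02), Ma04_g22010 (-2.68) and Ma08_g08610 (-2.64), none of them described, rest on 0 to 2 fragments in each library and give no fold.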

How the results depend on the processing

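No paired analysis was possible because each group had 1 library. The counts of leaf-higher and root-higher genes stayed within 1.5 times of the values as deposited under all pseudocounts, filters and scalings. With a limit of 2 they were 2806 and 5910, the calls shared by both pairs 2156 and 4109, the low-N calls 3044 and 5336, and the same-name groups 27 in place of 77. Lists with a median of at least 1 numbered 5, or 3 with a pseudocount of 5 FPKM; those at -1 or below numbered 21, or 12 with median-ratio or TMM scaling.

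Of the 38 list medians, those of at least 1 in size kept their sign under all scalings. NAC turned to 0.44, WRKY to 0.13 (0.10 with TMM), starch and sucrose to 0.35 and amino acid transport to 0.00 with median ratios. Lists cut to the members of 1 table could hold few genes. With members of the root table alone, photosystem and antenna had a median of -2.87 (3 of 41 genes) and carbon fixation -5.50 (5 of 19). Sugar transport had -1.88 (5 of 11) and phosphate and sulfate -3.47 (6 of 21). With members of the leaf table alone, root barrier had 4.37 (3 of 21), cuticle 1.24 (8 of 16), defence 0.77 (36 of 71) and homeobox and LOB 0.20 (14 of 27). In the low-N pair, nitrate and ammonium uptake had 1.03, defence 0.20, glycosyltransferases 0.60, homeobox and LOB 1.00, auxin 0.038 and the other hormones 0.27.

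Of the named genes, 8 that were not called under normal N changed sign in the low-N pair. The 22 that were called and changed sign had these log2 ratios there: Ma01_g04040 2.81, Ma02_g13770 -1.44, Ma02_g18550 -2.26, Ma03_g05150 0.11, Ma04_g12650 -0.18, Ma04_g22010 -2.68, Ma04_g28690 0.27, Ma04_g34890 0.21, Ma05_g07880 0.21, Ma05_g08930 -1.44, Ma06_g04860 3.02, Ma06_g13460 0.18, Ma06_g13610 3.21, Ma06_g21680 1.28, Ma06_g35600 -1.25, Ma07_g17570 -1.82, Ma07_g18010 -0.79, Ma08_g08610 -2.64, Ma08_g19890 -0.79, Ma08_g27940 1.03, Ma09_g07590 -6.28 and Ma11_g09260 1.11. The cause was not tested for any of these. At this depth, genes near the floor of 3 counts cannot be told from absent ones.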
